A study of Mus musculus with 4 samples.

Results

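The nuclear genes of oxidative phosphorylation were described in sorted germinal centre B cells of the mouse. The genes were the protein-coding rows whose names begin with Nduf, Uqcr, Atp5 or Cox and a digit, together with Sdha to Sdhd. This rule gave 104 of the 37646 genes listed, 18730 of which are protein coding. By role they were 37 subunits and 8 assembly factors of complex I, 4 subunits of complex II and 8 of complex III. Complex IV had 11 subunits, 8 tissue-limited isoforms and 9 assembly factors, complex V had 17 subunits, and the last 2 were the supercomplex factor Cox7a2l and Cox5b-ps, a near-copy of Cox5b. Cyc1, which is a complex III subunit, does not match the rule and is given with the other pathway genes.

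The cells were B220+YFP+ splenocytes of C57BL/6 mice with the genotype YFPstopF/+Cg1Cre/+, called YC controls, in which a Cre recombinase driven from the Cg1 heavy chain locus turns on a YFP reporter. The mice had been injected with sheep red blood cells and again 20 days later, and cells were taken 10 days after the second injection. All 4 libraries, numbered 1 to 4, belonged to this 1 group, so levels are compared between genes within a library and between the libraries, and no sample of another group was analysed here. The reporter stays on in any descendant of a cell in which Cre acted, and the labels give neither an age nor whether the libraries are from different animals, so p-values measure only the spread between these samples, which may be technical. Poly(A) RNA was read in single-end reads of 50 bases, and the totals were 13777954 to 14629025 counts. Of the markers of the labelled cells, 6 of 6 B lineage genes and 10 of 10 germinal centre genes were above 1 on the transcripts-per-million (TPM) scale in all 4 libraries, summing to 4069 to 5467 TPM and 1369 to 2366 TPM. Markers of other cells, given further on, were above it too, at lower sums for all but plasma cells, so that this count does not settle how pure the cells were.

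Oxidative phosphorylation passes electrons from NADH (complex I) or succinate (complex II) through ubiquinone, complex III and cytochrome c to oxygen (complex IV), and the proton gradient built on the way drives ATP synthase (complex V). The mitochondrial genome encodes a few subunits of complexes I, III, IV and V, and all others, with every assembly factor, come from nuclear genes. Germinal centre B cells divide rapidly and are known for oxidative metabolism.

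Almost the whole nuclear set was present. More than 1 TPM in all 4 libraries was reached by 96 of the 104 genes (92.3%), beside 53.2% of all protein-coding genes. These 96 included all 77 subunits and all 17 assembly factors, and 7 of the 8 genes that did not were tissue-limited isoforms, the last being Cox5b-ps. The median subunit, at 67.9 TPM, stood above 88.4% of the protein-coding genes that reached a mean of 1 on the counts-per-million (CPM) scale, whose median was 13.8 TPM. Together the 104 genes took 0.656% ± 0.0721 of all counts (SD, n = 4), with 0.549% in library 2 and 0.683% to 0.706% in the others.

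**Figure D1:**
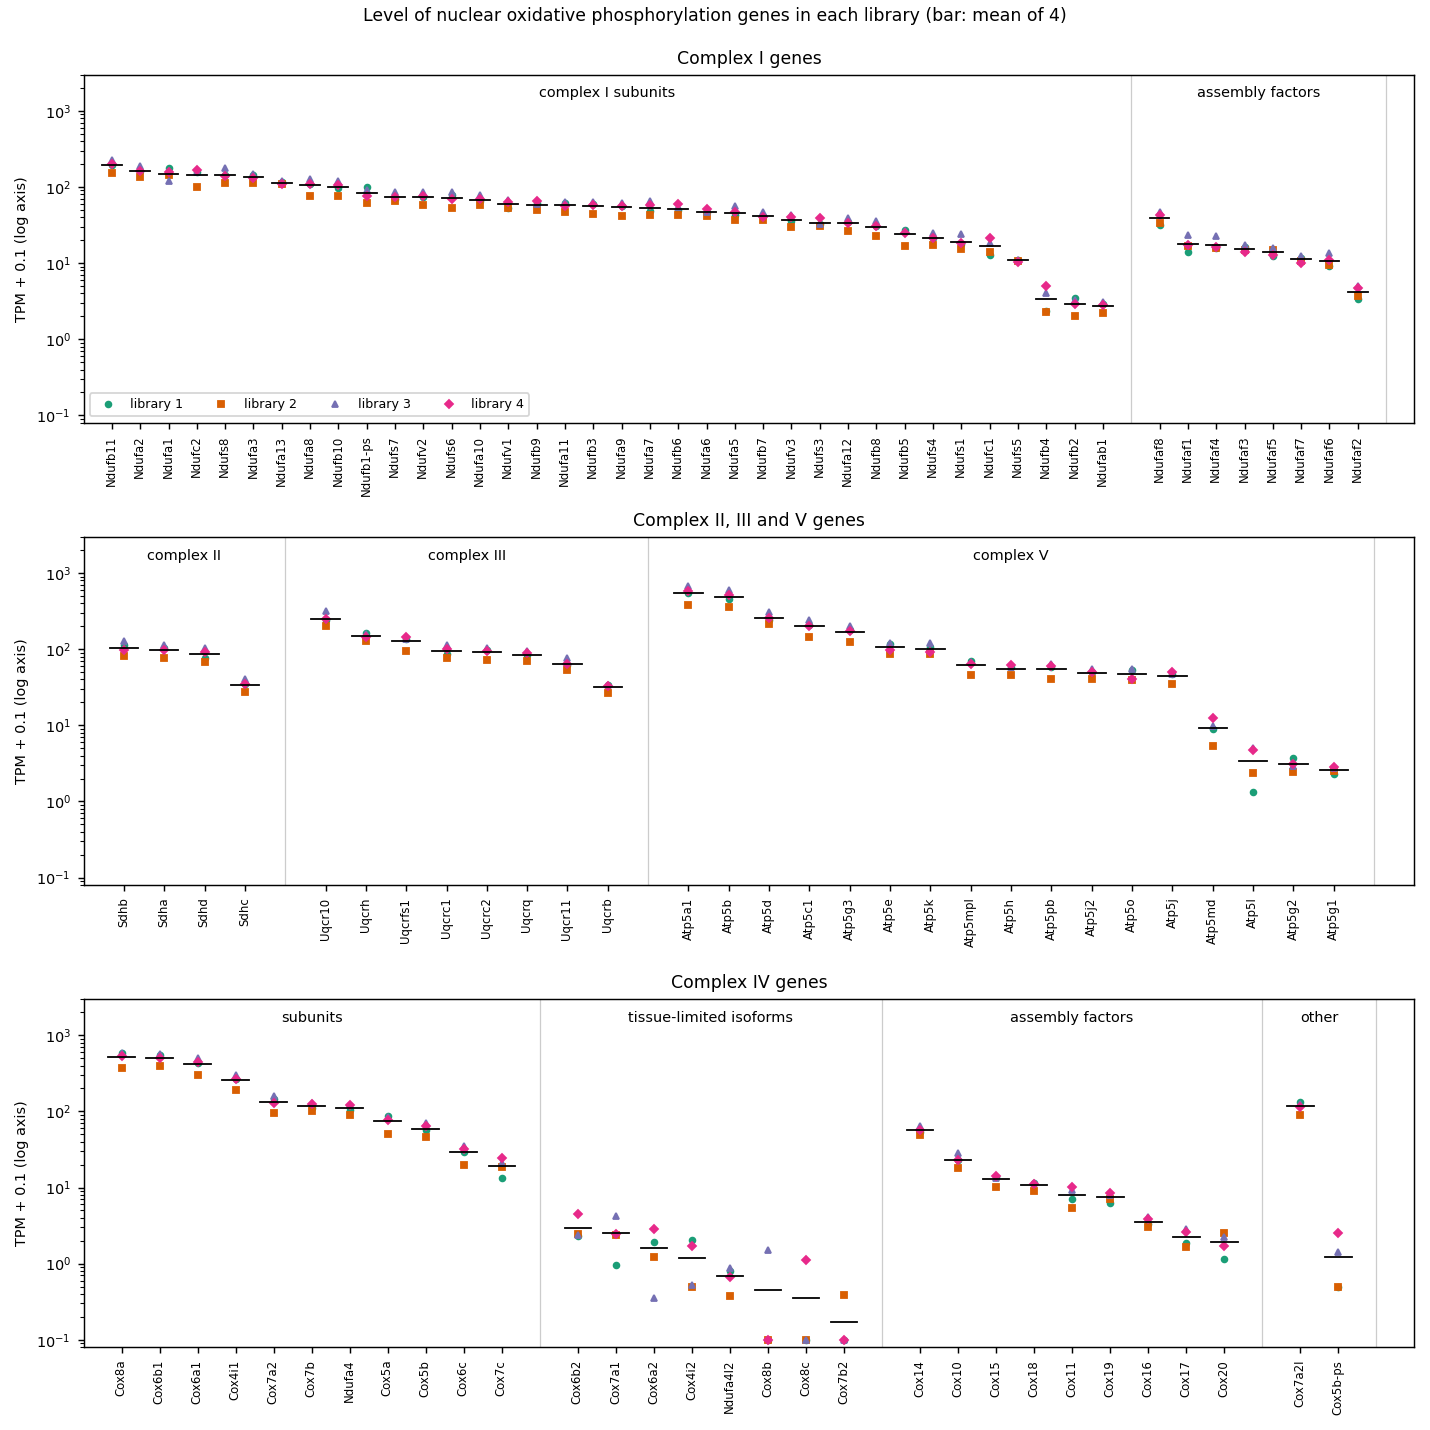
TPM + 0.1 on a log axis for the nuclear oxidative phosphorylation genes, all but 1 of the 104, in order of mean within complex and role; the 4 symbols are the libraries and the bar is their mean. Most subunits lie in the upper part of each panel, and most assembly factors, shown for complexes I and IV, lie lower. Some subunits lie as low, such as Ndufab1 (2.66 TPM) in complex I and Atp5g1 (2.5 TPM) in complex V. The isoforms of complex IV lie at the bottom, with means of 0.0705 to 2.82 TPM, a range that also holds Cox17, Cox20 and Cox5b-ps.

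In complex I the highest subunits were accessory ones. Ndufb11, a membrane arm subunit, was at 197, 152, 226 and 203 TPM in libraries 1 to 4, a mean of 194 ± 31.0 (SD, n = 4). Ndufa2 averaged 161 ± 21.6 TPM and Ndufa1 149 ± 23.2 TPM. Ndufa1 was lowest in library 3, at 121 TPM, against 142 to 176 TPM in the others. The 7 catalytic subunits had a median of 73.6 TPM and the 30 other subunits a median of 53.8 TPM, an order that turned with the length of the principal transcript (72.1 and 85.6 TPM). Among the catalytic ones, those of the arm that hands electrons to ubiquinone included Ndufs8 (142 ± 26.5 TPM), Ndufs7 (74.0 ± 9.35 TPM) and Ndufs3 (33.7 ± 3.64 TPM). Of the NADH-oxidising ones, Ndufv2 was at 73.6 ± 11.4 TPM and Ndufv1, which binds NADH, at 59.0 ± 7.66 TPM. Ndufs1, the largest iron-sulfur subunit, was lowest of the 7, at 17.9, 15.1, 23.8 and 18.5 TPM in libraries 1 to 4. The lowest complex I subunit was Ndufab1, the mitochondrial acyl carrier protein, at 2.66 ± 0.386 TPM. With the principal transcript's length, Ndufb7 (233 TPM) and Ndufa3 (204 TPM) led the complex and Ndufab1 was still the lowest.

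Complex II is the succinate dehydrogenase of the citric acid cycle. Sdhb, its iron-sulfur subunit, was at 114, 80.1, 127 and 98.8 TPM in libraries 1 to 4, and Sdha, the flavoprotein that oxidises succinate, at 104, 76.3, 114 and 98.8 TPM. Of the membrane anchors, Sdhd averaged 85.5 ± 16.7 TPM and Sdhc 34.2 ± 5.47 TPM. All 4 genes were lowest in library 2, as were, by TPM, 49.6% of all genes tested for variation further on. Sdhc lay below the other 3 in every library.

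Complex III was led by Uqcr10, a small accessory subunit, at 251 ± 46.2 TPM and by the hinge protein gene Uqcrh at 150 ± 16.5 TPM. The Rieske iron-sulfur protein gene Uqcrfs1 was at 134, 94.5, 138 and 144 TPM in libraries 1 to 4. The core protein genes Uqcrc1 (94.5 ± 16.1 TPM) and Uqcrc2 (92.1 ± 14.3 TPM) differed by less than the spread between libraries. With the length of the principal transcript they did not, at 182 ± 27.1 TPM for Uqcrc1 and 95.4 ± 13.3 TPM for Uqcrc2, and Uqcrh (261 TPM) drew level with Uqcr10 (260.0 TPM). Uqcrb was the lowest, at 31.5 ± 3.58 TPM.

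Complex IV, cytochrome c oxidase, was led by small accessory subunits. Cox8a was at 579, 371, 586 and 529 TPM in libraries 1 to 4, Cox6b1 averaged 501 ± 74.8 TPM and Cox6a1 419 ± 84.9 TPM. Library 2 was the lowest for each of these genes, as it was, by TPM, for 49.6% of all genes tested. Cox4i1, the largest nuclear subunit, was at 257 ± 46.8 TPM (412 TPM by the principal length, above Cox6a1 at 396 TPM), Cox7a2 at 131 ± 28.2, Cox7b at 116 ± 13.6 and Ndufa4, first assigned to complex I, at 109 ± 15.9 TPM. Cox7c was the lowest subunit, at 13.2, 18.4, 20.7 and 24.1 TPM in libraries 1 to 4, and it was 1 of 2 complex IV subunits that were not lowest in library 2 on the scaled CPM described further on. The supercomplex factor gene Cox7a2l averaged 116 ± 19.6 TPM.

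In complex V the catalytic head led. Atp5a1, the alpha subunit gene and highest of the 104 genes by TPM, was at 546, 386, 667 and 578 TPM in libraries 1 to 4. Atp5b, the beta subunit gene, was at 456, 358, 595 and 511 TPM, and by CPM, with no correction for length, it lay above Atp5a1, at a mean of 894 CPM against 750.5 CPM. With the length of the principal transcript Atp5b led as well, at 816 TPM against 531 TPM. The stalk genes followed, with Atp5d (delta) at 256 ± 36.5 TPM and Atp5c1 (gamma) at 199 ± 40.8 TPM. By the principal length Atp5d (408 TPM) was again next, but Atp5g3 (396 TPM) and Atp5e (338 TPM) lay above Atp5c1 (250.4 TPM). The lowest complex V genes were Atp5g1 (2.5 ± 0.225 TPM) and Atp5g2 (2.96 ± 0.514 TPM), which encode the same ring subunit as Atp5g3, and Atp5l, the gene of subunit g (3.28 ± 1.83 TPM).

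Subunit medians per complex were set against complex I within each library, on the log2(TPM + 1) scale. Complex IV was higher than complex I in 4 of 4 libraries, by 1.03 ± 0.06 (SD, n = 4), a 2.04-fold difference. Complex II was higher by 0.70 ± 0.05 and complex III by 0.73 ± 0.03, each in 4 of 4 libraries, and complex V by 0.04 ± 0.03 in 3 of 4. These are descriptions without a test, and they turn on the gene length used. With the length of the principal transcript in place of all exons, complex IV minus complex I was 1.12, complex II minus complex I was 0.045, complex III minus complex I was 0.24 and complex V minus complex I was 0.71. With the tissue-limited isoforms counted as subunits, complex IV minus complex I turned to -0.94.

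Assembly factors, proteins that build the complexes without remaining in them, had a far lower median level than the subunits. Their median was lower by 2.44 ± 0.12 on the log2(TPM + 1) scale (SD, n = 4), 5.44-fold lower, in 4 of 4 libraries. The 17 genes had a median of 11.1 TPM, against 67.9 TPM for the 77 subunits. For complex I, Ndufaf8 was the highest at 38.9 ± 7.29 TPM, followed by Ndufaf1 (17.9 ± 4.01 TPM) and Ndufaf4 (17.4 ± 3.37 TPM), with Ndufaf2 the lowest at 4.08 ± 0.789 TPM. With the length of the principal transcript Ndufaf8 (31.9 TPM) still led, but Ndufaf7 (17.1 TPM) and Ndufaf5 (16.3 TPM) followed it, Ndufaf2 was at 13.8 TPM and Ndufaf6 was the lowest at 9.39 TPM. For complex IV, Cox14 led at 56.2 ± 6.33 TPM, followed by Cox10, the haem A farnesyltransferase gene (23.1 ± 4.25 TPM), and Cox15, the haem A synthase gene (12.8 ± 1.83 TPM). With the principal length Cox14 (43.2 TPM) still led, but the copper chaperone gene Cox17, at 2.16 TPM over all exons, followed it at 21.6 TPM, ahead of Cox10 (18.5 TPM), Cox18 (16.7 TPM) and Cox15 (10.1 TPM). Cox20 was the lowest by either length, at 1.80 ± 0.600 TPM over all exons, and 68.2% of the 50-base words of its transcript also occur in other genes, mostly in the overlapping Hnrnpu. The direction was negative under every alternative length, scale and selection of members tried, between -2.02 and -2.73.

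Several subunits of complex IV are encoded by gene sets of which 1 form is found in most tissues and another mainly in muscle, testis or lung. Each tissue-limited form was a small share of its pair. Cox4i2, the lung form, made 0.419% ± 0.292 of the summed TPM of Cox4i2 and Cox4i1 (SD, n = 4). The heart and muscle forms made 0.368% ± 0.240 of the pair for Cox6a2 with Cox6a1 and 1.83% ± 0.867 for Cox7a1 with Cox7a2. The testis form Cox6b2 made 0.570% ± 0.220 of its pair with Cox6b1, and was at 2.24, 2.35, 2.30 and 4.42 TPM in libraries 1 to 4. Ndufa4l2, a gene induced by low oxygen, made 0.522% ± 0.163 of its pair with Ndufa4. By the principal length the shares were 0.219% for Cox4i2, 0.992% for Cox6b2 and 0.271% for Ndufa4l2. Only 1 library each had reads for Cox7b2 (1 count in library 2), Cox8b (3 counts in library 3) and Cox8c (3 counts in library 4). Those counts are at or under the limit that a count of 0 allows, taken as 3 counts or 0.205 to 0.218 CPM per library, and intervals of this kind cover counting error only. Cox4i2 had 10, 2, 2 and 8 counts in libraries 1 to 4, Cox6a2 8, 5, 1 and 12, and Cox7a1 3, 8, 13 and 8. Ndufa4l2 had 5, 2, 5 and 4. Each of these genes was also at or under that limit in 1 or more libraries, so its share is imprecise. Of 5 muscle genes listed, 4 were in the files and none exceeded 1 TPM in all libraries (summed level 0.35 to 1.23 TPM).

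**Figure D2:**
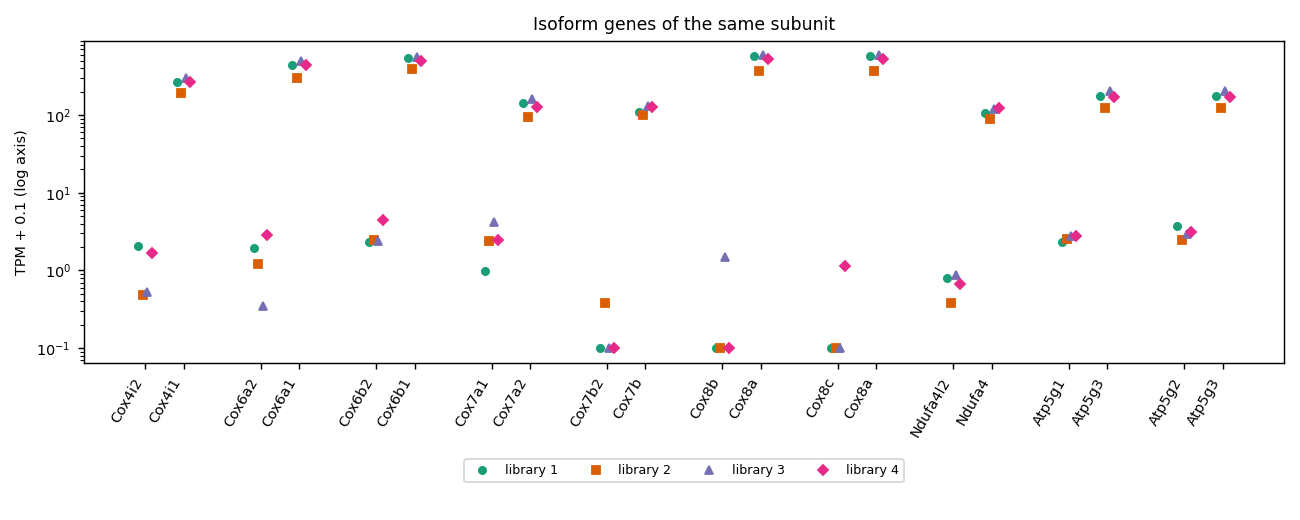
TPM + 0.1 on a log axis in the 4 libraries for each tissue-limited or minor isoform gene (left of each pair) and the leading gene of the same subunit (right). In every pair and library the left gene lies below the right one, such as Cox6b2 at 2.24 to 4.42 TPM and Cox6b1 at 396 to 562 TPM.

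The ring protein of ATP synthase is encoded by 3 genes that differed both in level and in how much sequence they share with other genes. Atp5g1 (chr11:96068852-96075670), Atp5g2 (chr15:102662864-102672352) and Atp5g3 (chr2:73908447-73911326), all on the minus strand of GRCm38, encode one and the same mature ring protein behind different targeting peptides. By TPM, Atp5g1 made 1.48% ± 0.316, Atp5g2 1.72% ± 0.274 and Atp5g3 96.8% ± 0.469 of the 3 genes (SD, n = 4). With the length of the principal transcript the shares were 3.90% for Atp5g1, 1.27% for Atp5g2 and 94.8% for Atp5g3, so that the order of Atp5g1 and Atp5g2 turned. Over the 75 codons of the mature protein, Atp5g1 differed from Atp5g3 in 45 of 225 bases and Atp5g2 in 48, and 0 codons of either encoded another amino acid. The same 120 coding bases of the GENCODE transcripts are shown so that the divergence can be read, with capitals where Atp5g1 or Atp5g2 differs from Atp5g3.
Atp5g1: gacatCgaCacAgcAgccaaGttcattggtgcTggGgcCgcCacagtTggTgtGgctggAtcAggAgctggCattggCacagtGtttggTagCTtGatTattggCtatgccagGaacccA
Atp5g2: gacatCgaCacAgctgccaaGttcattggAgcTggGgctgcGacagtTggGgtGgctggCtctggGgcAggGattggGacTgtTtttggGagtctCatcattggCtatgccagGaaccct
Atp5g3: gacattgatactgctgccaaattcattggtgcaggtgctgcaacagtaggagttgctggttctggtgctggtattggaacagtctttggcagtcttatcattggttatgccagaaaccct
The annotation also holds processed copies. Gm10039 on chromosome 11 differed from Atp5g1 in 1 of the 225 bases, and Gm10175 on chromosome 7 from Atp5g2 in 0. Of the 50-base words of the transcript, the read length used here, 66.0% in Atp5g1, 87.4% in Atp5g2 and 0% in Atp5g3 also occurred in another annotated gene. The copies themselves held few counts, 10, 6, 7 and 10 for Gm10039 and 0, 4, 3 and 0 for Gm10175 in libraries 1 to 4. How reads with several matches were counted is not given in the sources used here, so the levels of Atp5g1 and Atp5g2 are uncertain.

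Sequence shared with another annotated gene was common among the genes with low values. Of the 104 genes, 23 (22.1%) had at least 25% of their 50-base words in another annotated gene, beside 11.4% of protein-coding genes, and 47 had none. Of 11 subunits under 20 TPM, 8 were above that share: Ndufb2, Ndufb4, Ndufs5, Cox7c, Atp5g1, Atp5g2, Atp5l and Atp5md. Of the 66 subunits at or above 20 TPM, 10 were. The share counts genes annotated over the same bases as well as copies elsewhere. Ndufb2 shared 32.8% with overlapping genes and 0.739% elsewhere, while the others of the 8 low ones shared 37.0% to 87.4% elsewhere. Overlap also made most of the share in some higher subunits, such as Ndufb6 (34.1% against 0% elsewhere). Across the 77 subunits the share and the mean CPM had a Spearman rho of -0.49, a description across genes that share the same libraries. Of the same 11 subunits, 6 had an exon union at least 3 times as long as their principal transcript, as had 12 of the other 66. With the principal length, 5 subunits stayed under 20 TPM: Ndufs5 (13.6), Ndufb4 (5.03), Ndufab1 (4.05), Atp5g1 (15.9) and Atp5g2 (5.23), and 4 of these 5 shared at least 25%, against 14 of the other 72. Between genes, a low value is therefore uncertain for these members, and its cause was not tested.

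**Figure D3:**
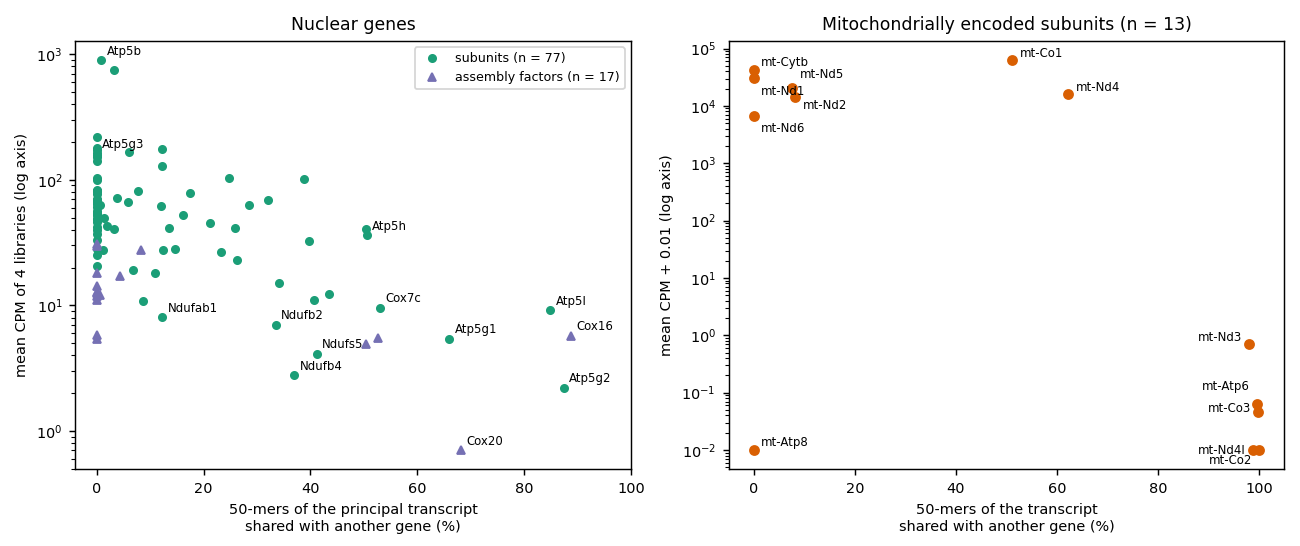
Mean CPM on a log axis against the percent of 50-base words of the principal transcript that occur in another annotated gene, for nuclear subunits and assembly factors (left) and for the 13 mitochondrially encoded subunits (right, CPM + 0.01). Nuclear genes with the largest shares, such as Atp5g2 and Atp5l, lie low, while others above 25%, such as Atp5pb (38.7%) and Cox5a (32.0%), lie among the higher ones, and 5 mitochondrial genes with shares of 98.0% to 100% lie near 0.

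Among the subunits encoded in mitochondrial DNA, low counts went with shared sequence for some genes only. The 13 genes fell apart, and 7 had at least 81030 counts in each library: mt-Co1 of complex IV, mt-Cytb of complex III and, of complex I, mt-Nd6, mt-Nd1, mt-Nd5, mt-Nd2 and mt-Nd4. mt-Co1 averaged 90499 ± 10819 TPM and mt-Cytb 84232 ± 6298 TPM. The value of mt-Nd6 is uncertain, because it is transcribed from the strand opposite the other genes and strand use in counting is not given. mt-Co2 and mt-Nd4l had 0 counts, mt-Co3 at most 1, mt-Atp6 at most 3 and mt-Nd3 3 to 13. These 5 genes had 98.0% to 100% of their 50-base words in another annotated gene, the 7 high ones 0% to 62.2%. mt-Atp8 had 0 counts with a share of 0%, and it overlaps mt-Atp6. All 13 proteins are parts of working complexes, and the counts of these 6 genes are not read here as levels of their RNA. The median mitochondrially encoded subunit exceeded the median nuclear subunit of complexes I, III, IV and V by 8.55 ± 0.23 on the log2(TPM + 1) scale (SD, n = 4), in 4 of 4 libraries, with 6 of the 13 genes near 0 included. Those 6 weigh on the value, which was 2.58 with means over the log2 values in place of medians and 8.94 with genes of at least 1 CPM only.

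At an adjusted threshold, no tested nuclear gene was called as varying between the libraries by more than its level gives. Only 1 of all 11982 genes tested was called, so this is not a trait of the members. Of the 95 genes that passed the filter on low counts, 0 passed edgeR's quasi-likelihood test of variation (Benjamini-Hochberg adjusted p under 0.05 over 11982 genes), beside 0.00835% of all genes tested. DESeq2 and limma also gave 0, and at an unadjusted p under 0.05 there was 1 of 95, beside 4.97% of all genes. That gene was Atp5l, at 1.23, 2.25, 4.97 and 4.68 TPM in libraries 1 to 4, low in libraries 1 and 2 and high in libraries 3 and 4, with a 4.05-fold range. Its edgeR quasi-likelihood p-value was 0.0309 before adjustment and 0.874 after it. Its transcript shares 84.8% of its 50-base words with other genes, and without library 1 it did not pass at the unadjusted threshold either. The next smallest p-values, by the same edgeR test, were those of Cox5a (0.203), Ndufa1 (0.222), Atp5md (0.224) and Ndufb1-ps (0.291), all with an adjusted p of 0.990. The 9 genes not tested were Cox20, Cox5b-ps, Cox4i2, Cox6a2, Cox7a1, Cox7b2, Cox8b, Cox8c and Ndufa4l2.

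Most of the tested members varied less than genes of their level. The quasi-dispersion lay below the trend for 74 of 95 (77.9%), beside 54.3% of all genes tested. Its median ratio to the trend was 0.446 for the members and 0.895 for all genes.

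**Figure D4:**
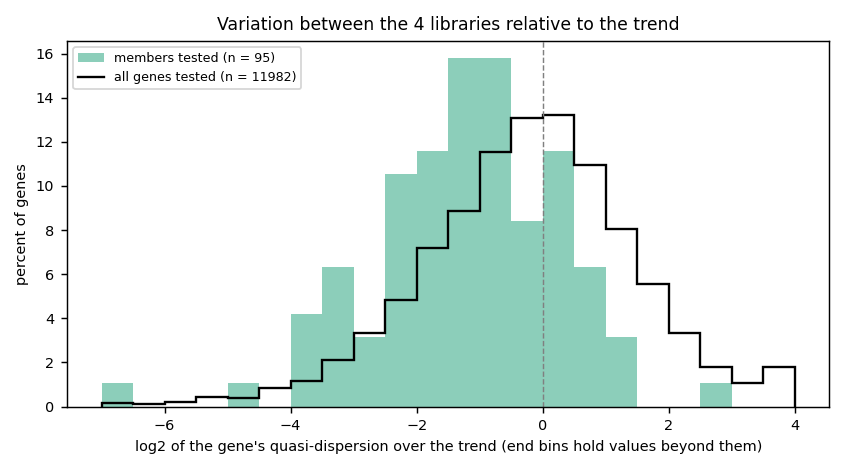
Percent of genes by log2 of the quasi-dispersion over its trend, filled for the 95 members tested and as a line for all 11982 genes tested; the dashed line marks the trend. The members lie to the left, with a median ratio of 0.446 against 0.895, and the member farthest to the right is Atp5l.

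What variation there was ran in the same direction for most subunits. On CPM scaled by TMM (trimmed mean of M-values) factors, 60 of the 95 genes (63.2%) were lowest in library 2, beside 26.6% of all genes tested, and 41 (43.2%) were highest in library 1, beside 28.9%. The median member was at 0.923 times its own mean over libraries in library 2, on the log2(CPM + 1) scale, and all genes at 0.997. The pattern was found in each complex: 24 of 37 complex I, 4 of 4 complex II, 7 of 8 complex III, 9 of 11 complex IV and 10 of 17 complex V subunits were lowest in library 2. The lowest ratio was that of complex IV, at 0.859 times the mean. Of the assembly factors, 5 of 16 were lowest in library 2 and 7 in library 1, beside 28.4% of all genes tested for library 1. No test was made of these counts, as genes are not replicates and library 2 is 1 sample. Under 4 other scales 60 to 79 members were lowest in library 2 (63.2% to 83.2%), beside 25.8% to 49.6% of all genes.

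**Figure D5:**
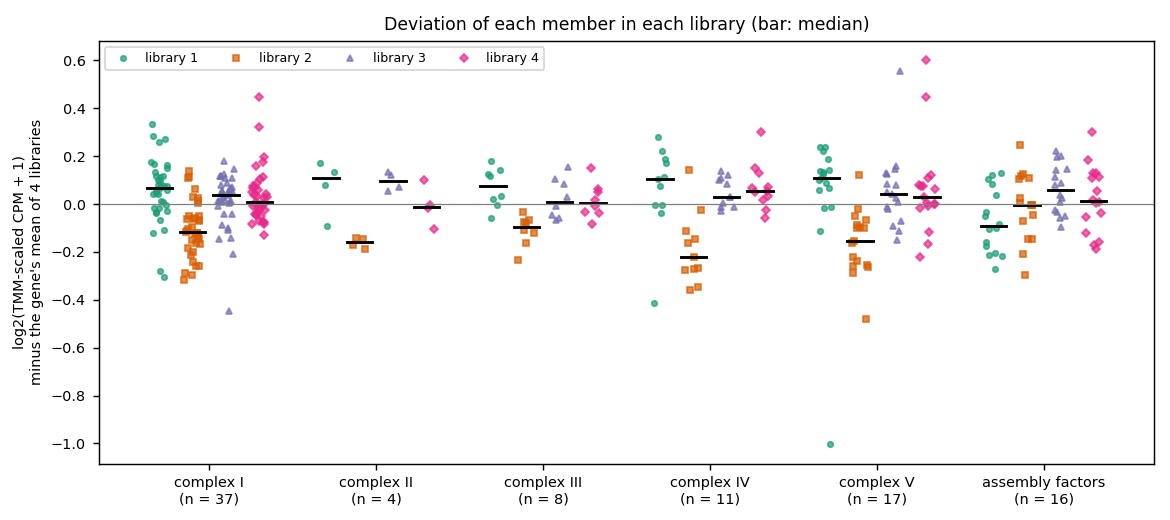
Deviation of each tested member in each library from its own mean, in log2(TMM-scaled CPM + 1), by complex and for assembly factors; bars are medians. In library 2 the medians of all 5 complexes lie below 0, from -0.22 in complex IV to -0.09 in complex III, and that of the assembly factors lies at -0.01.

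Library 2 stood apart in other values too. On TMM-scaled CPM the mitochondrially encoded subunits were highest there for 6 of the 7 genes tested, beside 25.1% of all genes tested. Their median deviation there was 0.28 (log2). Mitochondrial genes, which include these 7, took 23.3% of its counts, against 18.1% to 20.6% in the others, so these values are not independent. The 10 germinal centre markers summed to 1369 TPM in library 2, against 1747 to 2366 TPM in the others. All of them but Fas and S1pr2 were lowest in library 2, but so were, by TPM, 49.6% of all genes tested. Markers of other cells were also present: 8 of 8 T cell genes exceeded 1 TPM in all 4 libraries and summed to 454, 202, 174 and 380 TPM in libraries 1 to 4, and 5 of 5 plasma cell genes did and summed to 1841, 1625, 791 and 1669 TPM. The sums ranged over 173 to 282 TPM for 6 of 6 macrophage genes, 39.8 to 91.9 TPM for 4 of 4 NK cell genes, 88.0 to 208 TPM for neutrophil genes (2 of 4 above 1 TPM in all) and 98.0 to 269 TPM for erythroid genes (4 of 6), and no listed gene was at 0 in all 4 libraries. In edgeR's test of variation no marker passed at an adjusted p under 0.05. At an unadjusted p under 0.05, 8 of 8 T cell, 4 of 10 germinal centre, 3 of 4 plasma cell and 2 of 5 erythroid genes tested passed. So did 1 of 6 macrophage, 1 of 4 NK cell, 1 of 2 neutrophil and 0 of 6 B lineage genes, beside 4.97% of all genes tested. The part of the other cells in the pattern of the oxidative phosphorylation genes was not tested. In bulk RNA, fewer cells of a type and less RNA per cell cannot be told apart.

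Other genes of the pathway, which the naming rule does not cover, were mostly present as well. Of 32 assembly factors with other names, 31 were in the files and 29 exceeded 1 TPM in all 4 libraries, led by Uqcc2 for complex III (79.6 ± 13.8 TPM), Coa3 for complex IV (65.9 ± 11.5 TPM) and Atpaf2 for complex V (42.4 ± 7.46 TPM). Sco2, a copper chaperone of complex IV, was lowest at 0.479 ± 0.599 TPM. It had 10, 0, 5 and 0 counts in libraries 1 to 4, so its level is imprecise. The cytochrome c1 gene Cyc1 was at 134 ± 27.7 TPM, whereas Cycs, the gene of the electron carrier cytochrome c, was at 1.16 ± 0.264 TPM. The transcript of Cycs shares 28.5% of its 50-base words with other annotated genes and that of Cyc1 0%, and the Cycs value is uncertain for the reason given for Atp5g1. Atpif1, the inhibitor of ATP synthase, was at 37.0 ± 6.74 TPM. Of 11 regulators of mitochondrial genes, 10 exceeded 1 TPM in all 4 libraries. Myc led them at 177, 318, 231 and 248 TPM in libraries 1 to 4, highest in library 2, with an edgeR quasi-likelihood p-value of 0.0335 before adjustment and 0.899 after it. Yy1 was at 48.8 ± 9.65 TPM and Pprc1 at 33.7 ± 9.01 TPM, and the coactivator gene Ppargc1a, prominent in muscle and brown fat, was lowest at 0.131 ± 0.0476 TPM. At an adjusted p under 0.05 in edgeR's test 0 genes of these pathway lists passed, and before adjustment Myc alone did.

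Nuclear respiratory genes are known targets of NRF1, of ETS factors such as GABP and of YY1. Letters typical of each were searched on both strands of the promoters in RefSeq (GRCm38.p6), from 250 bases before to 50 after the start, and 83 of the 104 genes matched by symbol. The NRF1 letters, GCGCA and GCGC with any 1 base between them, were in 19 of the 83 (22.9%), beside 12.5% of 8706 tested protein-coding genes and 4.60% of all 32851 promoters. CCGGAAG (ETS) was in 24 (28.9%), beside 22.0% and 8.86%, and AAGATGG (YY1) in 14 (16.9%), beside 8.81% and 6.34%. The TATA letters TATAAA were in 9 (10.8%), beside 8.39% and 13.6%. Median GC content was 59.0% in member promoters, 60.7% in those of tested genes and 52.7% in all. The 19 genes with the NRF1 letters spanned all 5 complexes, from Ndufb4 and Atp5g2 at 3.32 and 2.96 TPM to Cox6a1, Atp5c1 and Atp5g3 at 169 to 419 TPM. A match of letters is a description and not a binding site. The promoters of Cox6a1 (chr5:115348909-115349208, minus strand) and Cox8a (chr19:7217567-7217866, minus strand) are shown as the complex IV genes with a pair of NRF1 matches and with a pair of ETS matches, in capitals. Cox6a1 also has 1 ETS match.
Cox6a1: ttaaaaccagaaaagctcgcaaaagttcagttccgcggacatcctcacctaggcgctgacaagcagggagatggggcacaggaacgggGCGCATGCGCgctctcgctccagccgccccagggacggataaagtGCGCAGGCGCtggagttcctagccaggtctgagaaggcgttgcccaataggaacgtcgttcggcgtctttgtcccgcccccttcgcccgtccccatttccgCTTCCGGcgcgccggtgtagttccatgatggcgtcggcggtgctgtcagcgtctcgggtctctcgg
Cox8a: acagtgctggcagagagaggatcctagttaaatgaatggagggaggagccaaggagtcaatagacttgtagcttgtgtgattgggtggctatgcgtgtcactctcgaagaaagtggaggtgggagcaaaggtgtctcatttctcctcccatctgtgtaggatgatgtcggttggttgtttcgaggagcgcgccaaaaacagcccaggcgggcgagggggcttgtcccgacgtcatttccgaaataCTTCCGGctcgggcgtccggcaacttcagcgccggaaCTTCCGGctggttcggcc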

How the data were processed

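The authors deposited raw counts of reads per gene as 1 table for each library. STAR 2.5.2b, featureCounts 1.6.0 and FastQC, with mm10 as the build, are named in the submitters' processing notes. Strand use, the annotation release and how reads matching several places were handled are not given in the sources used here.

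From these counts CPM, and TPM with the union of exons in GENCODE M21 (GRCm38), were computed. Of 37646 identifiers, 37536 had a length. For variation between libraries, edgeR 4.0.16 (R 4.3.3) was used with filterByExpr, TMM and an intercept-only glmQLFit, referring each gene's quasi-dispersion over its trend to the upper tail of F, adjusted by Benjamini-Hochberg over 11982 genes. The biological coefficient of variation was 21.8%. DESeq2 1.42.0, limma 3.58.1, other filters, scales and lengths, and each library left out in turn were alternatives. Group differences are medians of log2(TPM + 1) with no test, since 4 libraries could not go below an exact sign-flip p of 0.125.

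Each 50-base word of a principal transcript was looked up, on both strands, in the transcripts of all other genes in GENCODE M21; unannotated copies were not covered. Python 3.11.15 did the rest. Named genes were the 3 highest and the lowest of each complex and role, the catalytic core, the isoform sets, the smallest p-values of the variation test, members with a range of at least 3-fold, and the ends of the other pathway lists. The members, lists and this rule were chosen with earlier results of these data known. Genes named for shared sequence were chosen after their values were seen. Ndufa4 was placed in complex IV. Values of 1 member are not reported here.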

Additional observations from a re-analysis of the deposited data

Results flagged for a closer look

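In a group of 4 libraries, 1 library lay far from the other 3 for 6 of 56 named levels and for 2 of 6 differences between groups of genes. Chance flags about 1 in 20 groups. For the tissue-limited isoforms these were Cox6b2 in library 4 (4.42 TPM), Cox7b2 in library 2 (0.282 TPM), Cox8b in library 3 (1.41 TPM) and Cox8c in library 4 (1.03 TPM), the last 3 on 1 to 3 counts with no count in the other libraries, which sets them apart by construction. The complex I assembly factor gene Ndufaf4 was high in library 3 (22.5 TPM, 15.5 to 16.2 in the others), and Uqcrb was low in library 2 (26.2 TPM, 32.6 to 33.9 in the others). The difference of complex III minus complex I subunits was 0.77 (log2) in library 3 and 0.71 to 0.72 in the others. The difference of mitochondrially encoded minus nuclear subunits was 8.89 (log2) in library 2 and 8.41 to 8.48 in the others.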

How the results depend on the processing

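No paired analysis was possible because all libraries belong to 1 group. No member passed the adjusted threshold under any alternative, while the count over all genes was 63 with the robust edgeR fit, 159 DESeq2 dispersion outliers, 262 without a filter, 0 with limma and 0 to 19 with a library left out. Leaving out a library gave 0 to 1 members at an unadjusted p under 0.05. Members below the dispersion trend numbered 70 to 84 with a library left out (73.7% to 88.4%), beside 55.9% to 58.8% of all genes tested. Differences of complexes II, III, IV and V minus complex I, of assembly factors minus subunits and of mitochondrially encoded minus nuclear subunits, all in log2, moved with the setting. With CPM and no gene length they were 0.79, 0.80, 0.69, 0.59, -2.02 and 7.00. With means over members the first 4 were 0.64, 1.01, 1.38 and 0.17 and the last was 2.58. With the principal transcript length they were 0.045, 0.24, 1.12, 0.71, -2.73 and 7.53. For members sharing under 25% of their 50-base words they were 0.58, 0.67, 1.58, 1.11, -2.58 and 8.07. With genes of at least 1 CPM only, the mitochondrially encoded difference was 8.94. With isoforms included, complex IV minus complex I reversed to -0.94 and the assembly factor difference was -2.28. The settings on lengths, isoforms and shared words, and the 4 other scales for the library 2 count, were added after the data were seen. Causes were not tested. Of 56 named levels, 34 moved by more than 1 SD with the principal length and 0 with any library left out; TPM over nuclear genes only raises all nuclear genes of a library by 1 common factor. At these depths 3 counts equal 0.205 to 0.218 CPM, so absence of an isoform gene cannot be shown.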

Other observations

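The 78 mitochondrial ribosomal protein genes, nuclear genes whose products make the ribosome that translates the mitochondrially encoded subunits, had a median of 25.3 TPM, and 77 exceeded 1 TPM in all 4 libraries. Of the 77 tested, 33 (42.9%) were lowest in library 2, beside 26.6% of all genes tested. The 17 rows whose names match those of the members but whose type is not protein coding held 6 to 19 counts in all per library.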
